A study of Bos indicus and Bos taurus with 17 samples.

Results

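The 74 microRNA gene entries of a transcriptome of bovine milk epithelial cells are described here. An entry was included when its gene name, or 1 part of a comma-joined name, began with bta-mir- or bta-let- and its level reached 1 FPKM (a fragment count scaled to transcript length and to the mapped reads of the library) in at least 1 of 6 groups. Of the 21631 distinct names in the table, 554 were microRNA entries. The 74 members fell into 42 entries that held only microRNA names, called microRNA-only, and 32 entries in which a microRNA name was joined with another gene. The members were selected on the same FPKM values that are given below, so the counts and ratios are descriptions.

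A microRNA gene is transcribed as a long primary transcript, usually capped and polyadenylated. DROSHA with DGCR8 cuts out a hairpin, exportin-5 carries it to the cytoplasm, and DICER1 trims it to the short mature strand that an Argonaute protein uses to silence messenger RNAs. Many microRNA genes lie inside a host gene and share its promoter. Libraries made from poly-A selected messenger RNA read primary and host transcripts and not mature microRNAs, so none of the levels below is a level of a mature microRNA.

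The cells came from the milk of Kashmiri cattle, a local breed of northern India that has not been improved for milk production, and of Jersey cattle, a dairy breed. Milk was taken on day 15 (D15), D90 and D250 of lactation, and epithelial cells were captured with magnetic beads carrying an antibody to cytokeratin 18. The labels gave 17 samples, with 2 for Jersey D90 and 3 for each of the other groups, from cows in lactation 2 or 3. Jersey D250 and Kashmiri D90 held lactation 2 only, and the other groups held both. Breed and day are therefore partly mixed with lactation number. The study's methods read as if the same cows were sampled on each day and place all of them in 1 lactation, which differs from these labels. They also describe more libraries than the labels list, and whether the pooled Jersey D90 value holds another sample is not known. No treatment was applied.

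Each group of breed and day had a single FPKM value made by the authors from its pooled libraries. No spread between cows could be computed, no test between groups was possible, and the reads behind a value are unknown. FPKM is scaled by transcript length. A hairpin is far shorter than a messenger RNA, so levels of different entries, and of both kinds, may not be comparable on that scale. An entry was tested for the fold limit where the higher of both groups was 1 FPKM or more, and it was past the limit where the log2 ratio, with 1 FPKM added to each value, was 2 or more in size. Ratios of single entries are plain ratios of FPKM without a pseudocount, and none is given against a value listed at 0. A ratio against a value below 1 FPKM can be large for a small difference in FPKM.

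The labelled cell type was compared with marker genes. KRT18, the gene of the captured keratin, had 51.3, 9.13 and 11.5 FPKM in Kashmiri and 33.7, 1.59 and 4.51 FPKM in Jersey. All 14 epithelial markers were found with values, and their summed level was 6205, 773 and 2739 FPKM in Kashmiri, in the order of the days, and 2799, 108 and 1492 FPKM in Jersey. The 6 neutrophil markers found of 12 summed to 171, 480 and 588 FPKM in Kashmiri and to 4701, 5250 and 13311 FPKM in Jersey. The 10 macrophage markers summed to 109, 483 and 491 FPKM in Kashmiri and to 1014, 2145 and 1852 FPKM in Jersey. The 11 lymphocyte markers summed to 319, 1367 and 321 FPKM in Kashmiri and to 229, 153 and 81.8 FPKM in Jersey, while no red blood cell marker found exceeded 0.610 FPKM. None of the markers found in these lists was at 0 in all groups. Milk protein genes were listed at 0 in many groups, CSN1S1 and CSN2 (caseins) and PAEP among them, each with a value for Jersey D90 only. A 0 in this table is therefore given as listed at 0 and not as absence of a transcript.

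Most microRNA names were listed at 0. Of 515 distinct microRNA-only entries, 451 (87.6%) were listed at 0 in all groups, 22 lay between 0 and 1 FPKM, and 42 (8.16%) reached 1 FPKM. Of the 39 joined entries, none was at 0 in all groups and 32 (82.1%) reached 1 FPKM. For comparison, 58.2% of the 21077 other names reached 1 FPKM and 12.8% were at 0 in all groups. MicroRNAs numbered 2000 or more reached 1 FPKM in 10 of 208 entries, against 32 of 307 entries with lower numbers or let-7 names. The mir-2284 and mir-2285 genes, a large ruminant family of related copies, had 26 entries, of which 23 were listed at 0 and 1 reached 1 FPKM. Of all microRNA-only entries numbered 2000 or more, 90.4% were listed at 0 in all groups and 4.81% reached 1 FPKM, so this family was near these shares. Reads that mapped to several positions had been discarded by the authors, and whether this lowered any of these values was not tested.

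The limit of 1 FPKM cut through a continuous range. Just inside it lay the entry of NR6A1 with mir-181a-2 (highest value 1.03 FPKM) and mir-331 (1.04 FPKM). Just outside lay mir-2446 (0.960 FPKM) and mir-1179 (0.894 FPKM).

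Host genes of many microRNAs listed at 0 had values of their own. Among 54 known pairs of a microRNA and its host, both names were found for 40, and in 36 of these the microRNA entry was listed at 0 in all groups. The 36 microRNAs lie in 31 hosts, of which 21 had at least 1 FPKM in all groups and 10 had at least 10 FPKM in all groups. SREBF2, the regulator of cholesterol synthesis and host of mir-33a, ran from 45.2 FPKM in Jersey D15 to 111 FPKM in Kashmiri D90. COPZ1, a coatomer subunit and host of mir-148b, ran from 45.1 FPKM in Kashmiri D90 to 104 FPKM in Kashmiri D15. MCM7, a subunit of the replicative helicase and host of mir-25, mir-93 and mir-106b, ran from 12.4 to 40.6 FPKM. The 3 pairs that shared an entry were CTDSP2 with mir-26a-2 and DALRD3 with mir-191 and mir-425. Only mir-378-1 and its host PPARGC1B both had values, of at most 0.170 and 0.618 FPKM.

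**Figure D1:**
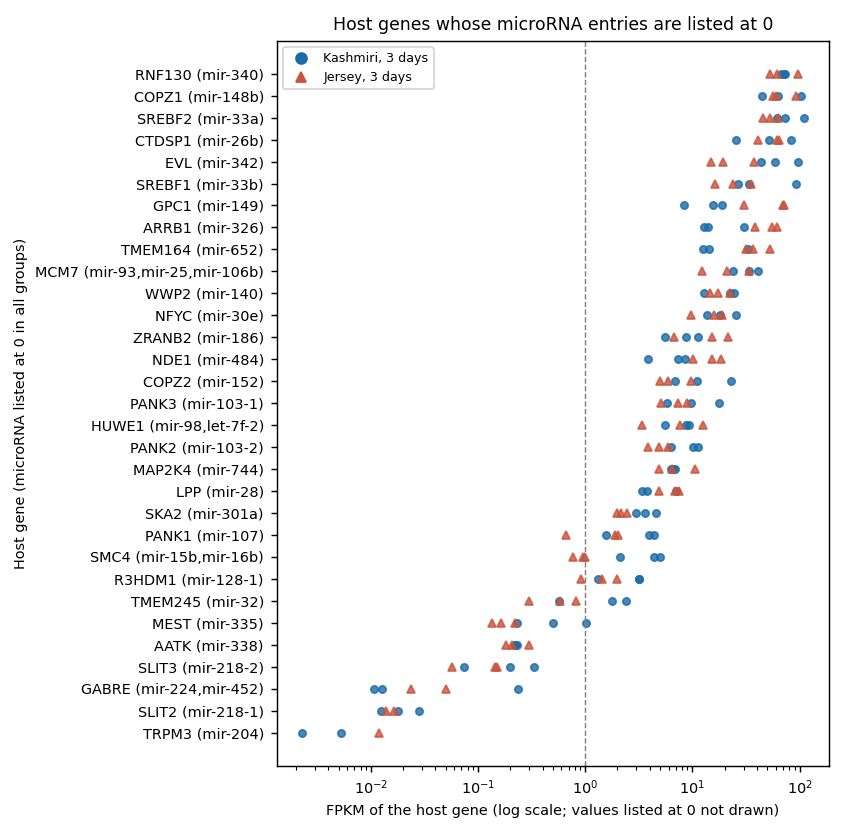
FPKM of 31 host genes (x axis, log scale) whose microRNA entries, named in brackets on the y axis, were listed at 0 in all 6 groups; circles are Kashmiri and triangles Jersey, 3 days each, and values at 0 are not drawn. The dashed line marks 1 FPKM, and 21 hosts lie at or to the right of it in every group.

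The name mir-21 was not found. Its known host VMP1, an autophagy gene, was listed in an entry with an Ensembl identifier. That entry stood at 9.58, 17.0 and 22.0 FPKM in Kashmiri and at 95.1, 148 and 748 FPKM in Jersey, so all Jersey values were above all Kashmiri values.

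**Figure D2:**
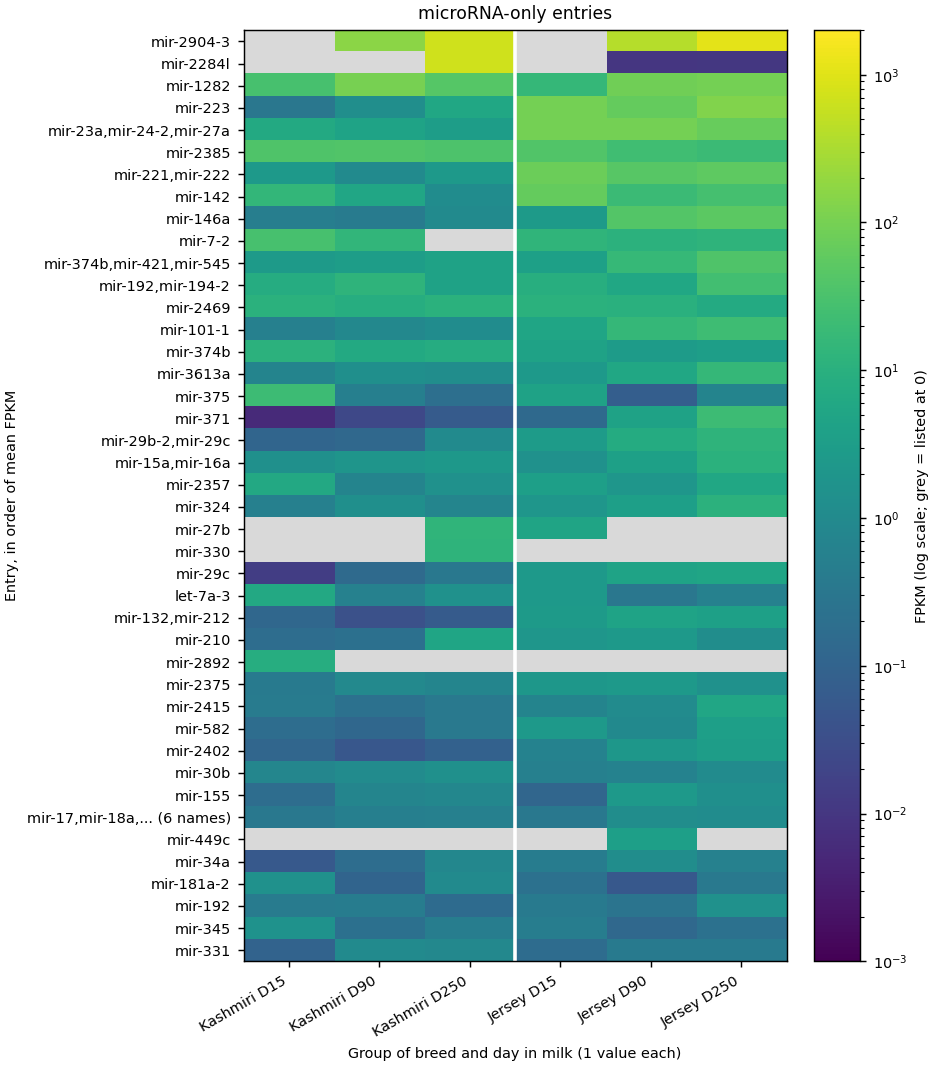
FPKM of the 42 microRNA-only entries (y axis, in order of mean) in the 6 groups (x axis), with colour on a log scale and grey for values listed at 0. The white line separates Kashmiri from Jersey, and mir-223, mir-221 with mir-222 and the mir-23a entry are bright on the Jersey side only.

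Several primary transcripts of microRNAs known from blood and immune cells were higher in Jersey than in Kashmiri. Of a list of 23 such microRNA names, 22 were found in 18 entries, 8 of these were listed at 0 in all groups and 9 reached 1 FPKM. In Jersey over Kashmiri, 4 of 7 entries tested at D15, 6 of 9 at D90 and 7 of 8 at D250 were past the fold limit, all higher in Jersey, where 6.45%, 6.58% and 10.9% of all names tested were past it and higher. With a pseudocount of 0.1 FPKM, 7 entries were past it at D15. The median log2 ratio of the list with the pseudocount of 1 FPKM was 3.25, 3.83 and 4.09, beside -0.13, -0.03 and -0.10 over all names tested. For mir-181a-2, a name on the list, only the joined entry with NR6A1 entered these counts and medians. The separate entry of mir-181a-2 alone was left out, and it was lower in Jersey on each day. At D15 that separate entry had 1.55 FPKM in Kashmiri and 0.228 FPKM in Jersey. The list was written with earlier results of these data known, so its direction is no independent evidence.

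mir-223, a microRNA of the myeloid lineage and abundant in neutrophils, had 0.315, 1.31 and 5.59 FPKM in Kashmiri and 96.6, 63.1 and 127 FPKM in Jersey. The lowest Jersey value was above the highest Kashmiri value. Jersey exceeded Kashmiri 307 times on D15, 48.2 times on D90 and 22.7 times on D250, while the Kashmiri level went up with each day. The paper lists mir-223 among its top breed differences at D15 and D250, and its fold change at D250 is larger than the ratio given here. The reason for that difference was not tested.

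The entry of mir-23a, mir-24-2 and mir-27a, which are cut from a single primary transcript, had 6.54, 4.48 and 3.15 FPKM in Kashmiri and 93.9, 94.9 and 70.4 FPKM in Jersey. mir-221 with mir-222, a pair known to repress the cell cycle inhibitor p27 and the receptor KIT, had 2.46, 1.02 and 2.37 FPKM in Kashmiri and 75.8, 47.4 and 56.0 FPKM in Jersey. In both entries the level varied little with day and much with breed. Jersey was 14.4, 21.2 and 22.4 times Kashmiri for the mir-23a entry at D15, D90 and D250. It was 30.9, 46.3 and 23.6 times Kashmiri for mir-221 with mir-222.

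mir-142, which is largely restricted to blood cells, went down with day in Kashmiri, from 15.2 to 5.21 and 1.15 FPKM, and stood at 63.6, 19.6 and 27.8 FPKM in Jersey. Its Jersey values were all above its Kashmiri values, but only the D250 ratio of 24.1 was past the fold limit. In Kashmiri its D15 level was 13.1 times the D250 level, a course opposite to that of mir-223 in the same groups.

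mir-146a, a negative regulator of NF-kappaB signalling that the same pathway induces, differed in timing as well as in breed. It had 0.494, 0.423 and 1.04 FPKM in Kashmiri and 2.65, 42.0 and 51.8 FPKM in Jersey. In Jersey the D90 level was 15.9 times the D15 level and the D250 level 19.6 times. Jersey was 99.3 times Kashmiri at D90 and 49.5 times at D250.

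mir-132 with mir-212, a pair induced through CREB, had 0.128, 0.0374 and 0.0653 FPKM in Kashmiri and 2.73, 4.52 and 3.87 FPKM in Jersey. mir-155, induced in activated lymphocytes and macrophages, had 0.176, 0.740 and 0.835 FPKM in Kashmiri and 0.122, 2.44 and 1.34 FPKM in Jersey. The mir-155 groups overlapped between breeds, and no comparison of mir-155 was past the fold limit. In the joined entry of C15orf48, SLC30A4 and mir-147, the last a microRNA induced by Toll-like receptor signalling, the level was 27.0, 34.0 and 32.6 FPKM in Kashmiri and 264, 497 and 1022 FPKM in Jersey. That entry mixes 3 gene names, and which of them carried the level cannot be told from the table.

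Of the other names on the list, mir-150, mir-342, mir-181a-1, mir-181b-1, mir-181b-2, mir-144, mir-451 and mir-486 were listed at 0 in all groups. The last 3 of them are known from red blood cells. The level of mir-146b reached at most 0.415 FPKM. The neutrophil and macrophage marker sums given above were also higher in Jersey than in Kashmiri on each day, and the lymphocyte sum was lower. All 6 neutrophil markers found were higher in Jersey on each day. All 10 macrophage markers were higher at D15 and at D90 but 6 at D250, where C1QA, C1QB, C1QC and MSR1 were lower in Jersey. Their part in the levels of these entries was not tested. In a mixed sample fewer cells of a type and less RNA per cell cannot be told apart.

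**Figure D3:**
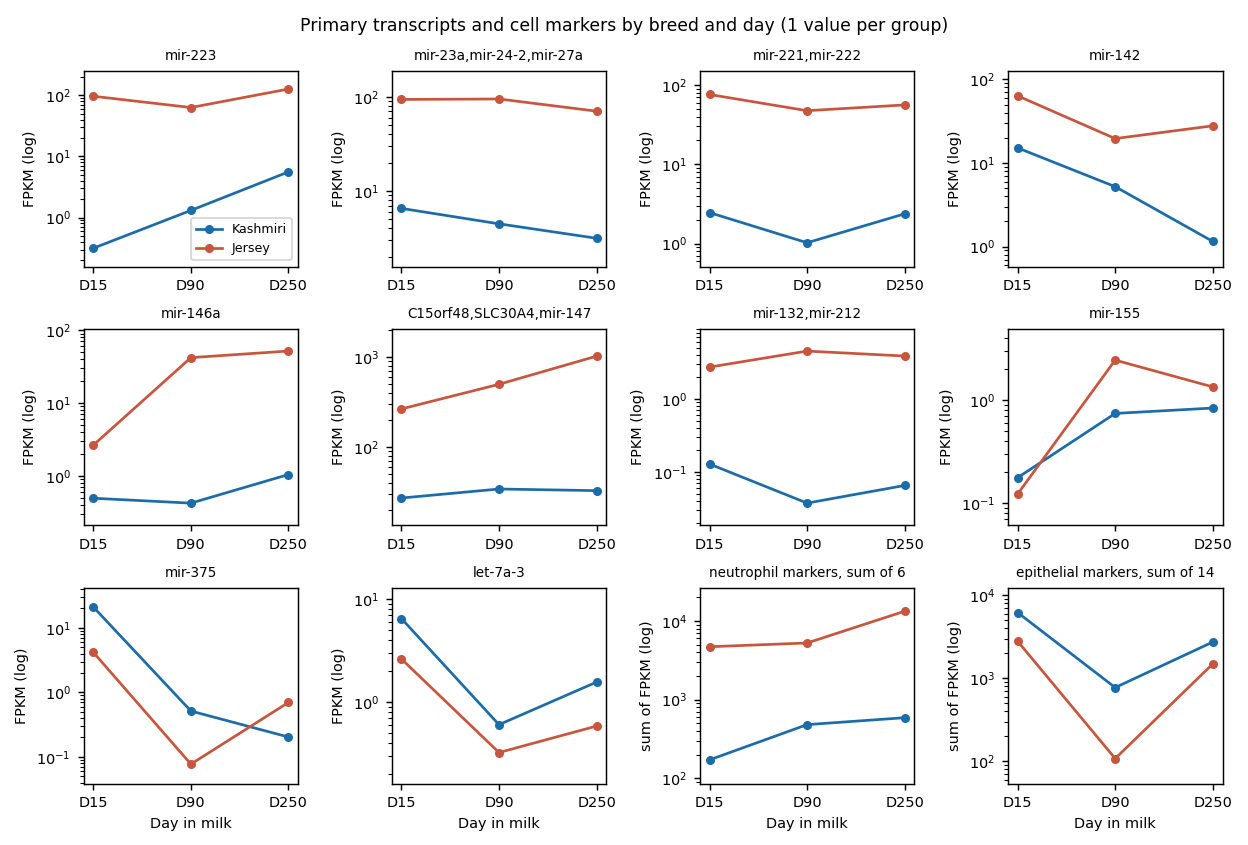
FPKM (y axes, log scale) of 10 entries and the summed FPKM of neutrophil and epithelial markers by day in milk (x axes), with 1 value per group for Kashmiri (blue) and Jersey (red). mir-223, the mir-23a entry, mir-221 with mir-222, mir-142, mir-146a, the mir-147 entry and mir-132 with mir-212 lie higher in Jersey on every day, as does the neutrophil sum, while mir-375 and let-7a-3 are highest at D15 in both breeds, as is the epithelial sum.

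Several entries outside that list were also higher in Jersey on every day. mir-101-1, from a family known to repress the histone methyltransferase EZH2, had 0.570, 0.870 and 1.13 FPKM in Kashmiri and 5.09, 15.6 and 22.0 FPKM in Jersey. mir-29b-2 with mir-29c, of a family known to repress collagen genes, had 0.115, 0.132 and 1.01 FPKM in Kashmiri and 2.79, 7.53 and 12.6 FPKM in Jersey. A separate entry of mir-29c alone had 0.0137, 0.153 and 0.334 FPKM in Kashmiri and 2.39, 4.47 and 5.19 FPKM in Jersey. These entries went up with each day in both breeds. mir-582 and mir-2402 reached 0.347 and 0.117 FPKM in Kashmiri and 3.63 and 3.19 FPKM in Jersey.

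In all, 16 of the 42 microRNA-only entries and 7 of the 32 joined entries had all 3 Jersey values above all 3 Kashmiri values, where 15.2% of all names at 1 FPKM or more did. The opposite order was found for 1 microRNA-only and 2 joined entries, where 11% of all names had it. The 1 microRNA-only entry was mir-374b, with 11.2, 6.60 and 7.91 FPKM in Kashmiri and 4.16, 2.93 and 3.45 FPKM in Jersey. The same name also appears in an entry with mir-421 and mir-545, and there Jersey was higher on each day, with 2.65, 3.24 and 4.37 FPKM in Kashmiri and 3.90, 16.7 and 35.9 FPKM in Jersey. The table gives no reason to prefer either entry as the level of the mir-374b gene.

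A group of entries was highest in Jersey D250 after going up with each day in that breed. The entry of mir-374b, mir-421 and mir-545 was 9.20 times as high at D250 as at D15. mir-15a with mir-16a, which are known to repress BCL2 and cell cycle genes, had 1.51, 3.91 and 10.5 FPKM in Jersey against 1.45, 1.89 and 2.25 FPKM in Kashmiri. mir-3613a had 2.36, 5.56 and 15.7 FPKM in Jersey and at most 1.39 FPKM in Kashmiri. mir-324 had 2.07, 3.65 and 11.4 FPKM in Jersey and at most 1.34 FPKM in Kashmiri, and neither mir-3613a nor mir-324 overlapped between breeds.

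mir-371, of a cluster best known from embryonic stem cells, had 0.00564, 0.0233 and 0.0648 FPKM in Kashmiri and 0.144, 4.17 and 21.3 FPKM in Jersey. It was 1 of 2 microRNA-only entries past the fold limit between D90 and D250 in Jersey, with a ratio of 5.10. mir-2415 went from 0.709 and 1.09 FPKM to 5.37 FPKM in Jersey and stayed at or below 0.410 FPKM in Kashmiri. mir-192 with mir-194-2, a pair known from liver and gut, had 7.89, 12.2 and 4.39 FPKM in Kashmiri and 9.04, 5.72 and 24.8 FPKM in Jersey. Its groups overlapped, and Jersey was 5.65 times Kashmiri at D250.

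Of the 42 microRNA-only entries, 21 peaked on D250, 16 of them in Jersey, while 12 peaked on D15 and 9 on D90. No such count over all names is given, so whether this is particular to microRNA entries was not tested. mir-375, known from secretory epithelia and pancreatic islets, had 21.1, 0.514 and 0.203 FPKM in Kashmiri and 4.18, 0.0772 and 0.699 FPKM in Jersey. Its D15 level was 41.0 times its D90 level in Kashmiri and 54.2 times in Jersey, with both D90 values below 1 FPKM. With the pseudocount of 1 FPKM the log2 ratio of D90 over D15 was -3.87 in Kashmiri and -2.27 in Jersey. At D15 Kashmiri was 5.05 times Jersey.

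let-7a-3, of a family that promotes differentiation, had 6.45, 0.602 and 1.56 FPKM in Kashmiri and 2.62, 0.323 and 0.583 FPKM in Jersey. mir-2357 had 6.43, 0.693 and 1.56 FPKM in Kashmiri and 3.60, 2.09 and 5.58 FPKM in Jersey. In Kashmiri both were lowest at D90 and past the fold limit between D15 and D90, by 10.7 times for let-7a-3 and 9.28 times for mir-2357. mir-345 and the entry of mir-181a-2 alone were also highest in Kashmiri D15, at 1.67 and 1.55 FPKM. The joined entry of NR6A1 with mir-181a-2 was instead highest in Jersey D90, at 1.03 FPKM, and all its Jersey values were above all its Kashmiri values. The summed epithelial markers were highest at D15 and lowest at D90 in both breeds. KRT19 and ELF5 held much of that sum, with 3195 and 1799 FPKM in Kashmiri D15. Single markers differed: EPCAM, CDH1 and CLDN4 were highest at D250 in Kashmiri, and CDH1, ELF5, EHF and MUC1 in Jersey. Among the entries, mir-2357 was highest at D250 in Jersey and mir-375 was lowest at D250 in Kashmiri. The part of the markers in these levels was not tested.

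mir-375 was the only name that reached 1 FPKM on a list of 12 microRNAs known from epithelial cells. Of these 12 names 11 were found, in 11 entries. Of these entries 9, among them mir-141, mir-200a, mir-200b, mir-200c, mir-205 and mir-429, were listed at 0 in all groups. Over all 515 microRNA-only entries 87.6% were listed at 0 in all groups and 8.16% reached 1 FPKM, so the epithelial list was near these shares. Over all 554 microRNA entries, joined ones included, the shares were 81.4% and 13.4%. Of 40 names of microRNAs known to be abundant in milk or the mammary gland, 30 were found in 28 entries, 18 of these were listed at 0 in all groups and 7 reached 1 FPKM. mir-148a, mir-30a and mir-30d, which are leading mature microRNAs of milk, had no value of 1 FPKM. Of 20 names in the clusters of mir-17 and its relatives and of mir-15 and mir-16, found in 13 entries, 2 entries reached 1 FPKM. The cluster of mir-17, mir-18a, mir-19a, mir-19b, mir-20a and mir-92a-1 had 0.331, 0.539 and 0.547 FPKM in Kashmiri and 0.341, 1.26 and 1.15 FPKM in Jersey, which is close to the limit.

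Some of the highest values belonged to entries that were listed at 0 in another group. mir-2904-3 had 0, 158 and 685 FPKM in Kashmiri and 0, 408 and 1079 FPKM in Jersey, the highest level of any microRNA-only entry. mir-2284l had 704 FPKM in Kashmiri D250, at most 0.0105 FPKM in Jersey, and 0 in the other groups. mir-7-2 had 28.8, 14.0 and 0 FPKM in Kashmiri and 13.0, 11.2 and 12.2 FPKM in Jersey. In mir-2904-3 the breeds followed the same course, whereas mir-2284l rested on a single group.

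mir-27b had 13.5 FPKM in Kashmiri D250 and 4.78 FPKM in Jersey D15 and was listed at 0 elsewhere. mir-330 had 12.7 FPKM in Kashmiri D250, mir-2892 had 8.34 FPKM in Kashmiri D15 and mir-449c had 3.56 FPKM in Jersey D90, each with 0 in the other groups. In all, 7 microRNA-only members and 0 joined members were listed at 0 in at least 1 group. Among names that reached 10 FPKM somewhere, 5 of 23 microRNA-only entries (21.7%) and 83 of 7071 other names (1.17%) were listed at 0 in another group. FPKM divides by length, and a hairpin is far shorter than a messenger RNA. The number of fragments behind each value is not known, and the cause of the zeros was not tested.

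mir-1282 and mir-2385 were the 2 microRNA-only entries above 10 FPKM in all groups. mir-2385 had 36.6, 38.6 and 34.8 FPKM in Kashmiri and 39.9, 23.1 and 19.4 FPKM in Jersey. mir-1282 had 28.8, 101 and 44.8 FPKM in Kashmiri and 15.5, 87.9 and 98.7 FPKM in Jersey, so both breeds were higher at D90 than at D15. mir-2469 stayed between 7.21 and 10.6 FPKM. mir-30b stayed between 0.559 and 1.48 FPKM. mir-210, which hypoxia induces, had 0.180, 0.214 and 5.002 FPKM in Kashmiri and 2.08, 2.40 and 1.23 FPKM in Jersey. mir-34a, which p53 induces, reached 1.26 FPKM in Jersey D90 as its highest value.

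In a joined entry the microRNA and the other gene share 1 value, and their parts in it cannot be told apart. Of the 32 entries, 30 held a gene symbol and 2 an Ensembl identifier only. Their median level ran from 8.43 FPKM in Kashmiri D250 to 13.1 FPKM in Jersey D250. That of the 42 microRNA-only entries ran from 0.531 FPKM in Kashmiri D15 to 4.53 FPKM in Jersey D250. Because transcript length may differ between the kinds, these medians are not read against each other. In 11 joined entries all 6 values were above 10 FPKM. ACTG1 (gamma-actin) with mir-3533 was the highest, at 912, 982 and 863 FPKM in Kashmiri and 1396, 1348 and 1248 FPKM in Jersey. HNRNPA3 (an RNA-binding protein) with mir-4444 stayed between 81.3 and 97.7 FPKM.

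**Figure D4:**
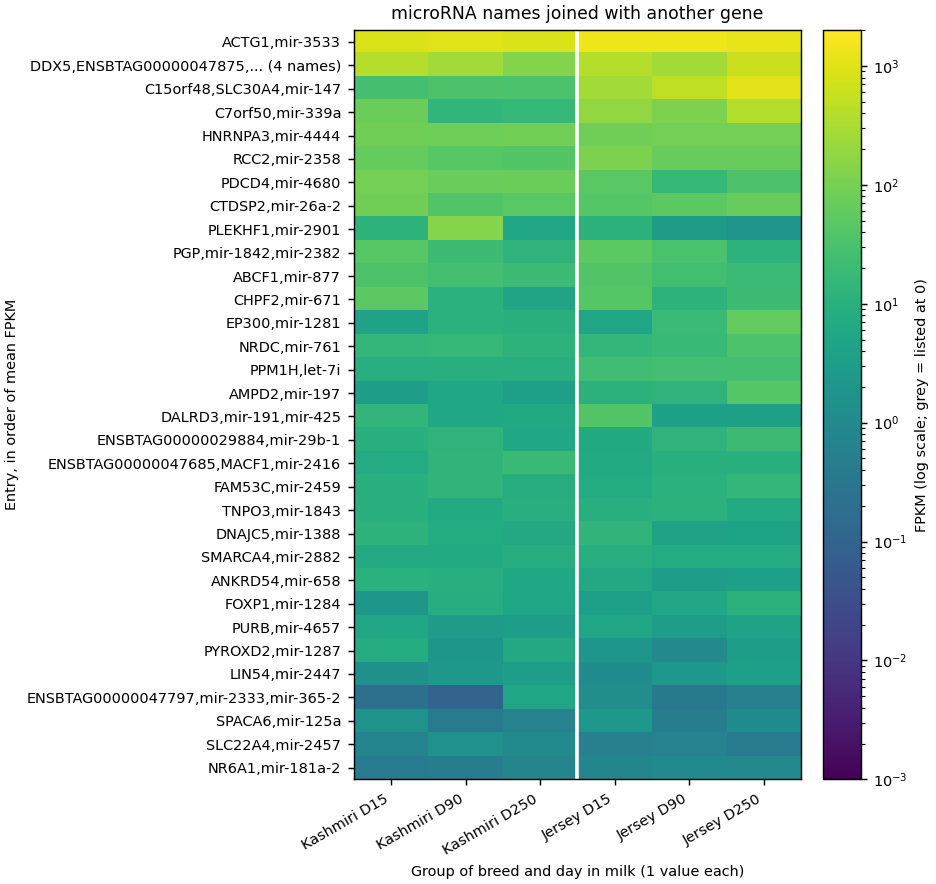
FPKM of the 32 entries in which a microRNA name is joined with another gene (y axis, in order of mean) in the 6 groups (x axis), with colour on a log scale. HNRNPA3 with mir-4444 keeps nearly the same colour throughout, whereas the entries of PLEKHF1, of mir-2333 with mir-365-2, of C15orf48 and of C7orf50 change colour widely.

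Of the 32 joined entries, 21 were past the fold limit in none of the 9 comparisons, against 14 of the 42 microRNA-only entries and 71.7% of all names at 1 FPKM or more in a group. C7orf50 with mir-339a had 75.2, 14.2 and 15.8 FPKM in Kashmiri and 191, 113 and 384 FPKM in Jersey. Jersey was 7.95 times Kashmiri at D90 and 24.3 times at D250. PLEKHF1, an endosomal protein, with mir-2901 had 11.7, 145 and 5.01 FPKM in Kashmiri and 10.9, 3.12 and 1.89 FPKM in Jersey. Its value in Kashmiri D90 stood apart from the other groups and was 46.5 times that of Jersey D90.

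DALRD3 with mir-191 and mir-425 had 13.7, 5.68 and 6.68 FPKM in Kashmiri and 41.9, 4.03 and 4.04 FPKM in Jersey. In Jersey its D15 level was 10.4 times its D90 level. CHPF2 (a chondroitin-polymerizing enzyme) with mir-671 was also highest at D15, with 50.6, 10.8 and 4.68 FPKM in Kashmiri and 44.1, 12.02 and 20.6 FPKM in Jersey. PGP with mir-1842 and mir-2382 went down with each day in both breeds, from 47.2 to 20.6 and 12.8 FPKM in Kashmiri and from 52.9 to 30.7 and 11.7 FPKM in Jersey. ABCF1 with mir-877 followed the same order, from 35.0 to 20.5 FPKM and from 38.1 to 20.1 FPKM, without passing the fold limit.

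EP300 (a histone acetyltransferase) with mir-1281 went up with day in Jersey, from 5.12 to 19.7 and 62.0 FPKM, and had 4.24, 10.4 and 9.94 FPKM in Kashmiri. AMPD2 (an AMP deaminase) with mir-197 had 3.47, 5.70 and 3.75 FPKM in Kashmiri and 11.4, 12.5 and 43.0 FPKM in Jersey. PPM1H (a phosphatase) with let-7i differed by breed and hardly by day, with 8.74, 9.42 and 9.15 FPKM in Kashmiri and 23.3, 26.5 and 25.6 FPKM in Jersey. PDCD4, a translation inhibitor, with mir-4680 was lower in Jersey throughout, with 98.0, 73.0 and 78.7 FPKM in Kashmiri and 47.8, 16.04 and 35.0 FPKM in Jersey.

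RCC2 with mir-2358 was highest at D15 in both breeds, at 66.7 FPKM in Kashmiri and 114 FPKM in Jersey. CTDSP2 with mir-26a-2 ran from 38.0 to 84.9 FPKM with no common order of days. PYROXD2 with mir-1287 had 8.14, 2.14 and 6.29 FPKM in Kashmiri and 2.05, 0.944 and 3.20 FPKM in Jersey, lowest at D90 in both breeds. The entry of an Ensembl identifier with mir-2333 and mir-365-2 had 5.43 FPKM in Kashmiri D250 and at most 1.34 FPKM elsewhere. The other entry of this kind, with mir-29b-1, had 10.2, 12.7 and 5.79 FPKM in Kashmiri and 6.57, 12.6 and 21.4 FPKM in Jersey. SPACA6 with mir-125a was highest at D15 in both breeds, at 1.65 FPKM in Kashmiri and 2.26 FPKM in Jersey.

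Counts past the fold limit over all members are read beside the share of all names, and since the same values chose the members nothing is inferred from the difference. The comparisons share groups, so they are not independent. Within Kashmiri, 5 of 23 microRNA-only entries tested (1 higher, 4 lower) and 3 of 30 joined entries were past the limit at D90 over D15, where 7.5% of all names were past it and 2.34% were past it and higher. At D250 over D90 the counts were 6 of 27 (5 higher) and 2 of 30, beside 1.98% and 0.859%. At D250 over D15 they were 10 of 28 (6 higher) and 3 of 31, beside 4.05% and 1.85%. Over both kinds, 8 entries were past the limit at D250 over D90 and 13 at D250 over D15, and these counts became 3 and 7 without the entries listed at 0 in a group. In the corresponding Jersey count at D90 over D15 the 8 entries became 5.

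Within Jersey, 7 of 34 microRNA-only entries (5 higher) and 1 of 31 joined entries were past the limit at D90 over D15, beside 6.76% of all names and 2.98% higher. Between D250 and D90 the counts were 2 of 33 (1 higher) and 0 of 30, beside 4.18% and 3.72%. At D250 over D15 they were 9 of 34 (8 higher) and 4 of 30 (1 higher), beside 12.6% and 9.17%. mir-371 and mir-449c were the 2 at D250 over D90. The added 1 FPKM matters for low entries, since with 0.1 FPKM in its place 5 entries of both kinds were past the limit there.

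Between breeds, 6 of 29 microRNA-only entries (4 higher in Jersey) and 1 of 30 joined entries were past the limit at D15, beside 8.57% of all names and 6.45% higher. At D90 they were 11 of 32, all higher in Jersey, and 4 of 30 (2 higher), beside 11.7% and 6.58%. At D250 they were 19 of 36 (16 higher) and 6 of 31 (5 higher), beside 12.3% and 10.9%. The 3 microRNA-only entries lower in Jersey at D250 were mir-2284l, mir-27b and mir-330, each with a value in Kashmiri D250 and at or near 0 in Jersey. With 0.1 FPKM added in place of 1 FPKM, 18 entries of both kinds were past the limit at D15, against 7. The median log2 ratio with the pseudocount of 1 FPKM over the microRNA-only entries tested was 0.97, 1.18 and 1.80 in the order of the days.

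When FPKM was rescaled to the sum without milk protein genes, 7 of 8 entries of both kinds past the limit at D15 were higher in Jersey, against 5 of 7 as deposited. Only 5 of 7 milk protein names were found, and they summed to at most 13031 FPKM in a group. All values of a group summed to at least 533249 FPKM, so this scale is close to one set by the total. On that scale 3 of 7 were higher at D90 over D15 in Kashmiri, against 2 of 8 as deposited. At D250 over D90 in Jersey 0 of 1 was higher, against 1 of 2.

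**Figure D5:**
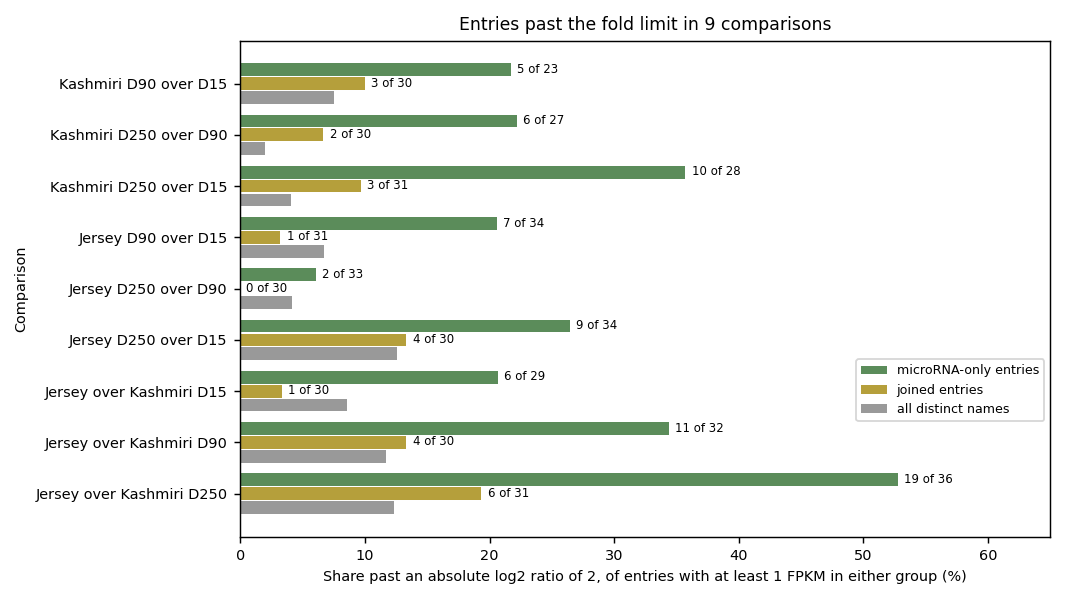
Share of entries past an absolute log2 ratio of 2 (x axis, percent of entries tested) in 9 comparisons (y axis), for microRNA-only entries (green), joined entries (yellow) and all distinct names (grey), with counts beside the bars. The longest bar is that of the microRNA-only entries in Jersey over Kashmiri at D250, 19 of 36.

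The genes that make and use microRNAs were measured in the same table. Of 42 such genes 39 were found, 33 had at least 1 FPKM in all groups, and LIN28B, an inhibitor of let-7 processing, was listed at 0 throughout. DROSHA, the nuclear enzyme, had 1.78, 1.87 and 3.12 FPKM in Kashmiri and 0.882, 1.19 and 1.40 FPKM in Jersey. DICER1, the cytoplasmic enzyme, had 1.88, 2.74 and 3.85 FPKM in Kashmiri and 3.70, 4.66 and 3.91 FPKM in Jersey. XPO5 (exportin-5) stayed between 2.38 and 3.99 FPKM. None of these 3 was past the fold limit in any comparison.

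AGO2, the Argonaute that can cleave its targets, had 4.37, 18.0 and 10.7 FPKM in Kashmiri and 5.77, 14.2 and 28.1 FPKM in Jersey. The entry of DGCR8, the partner of DROSHA, is joined with 2 Ensembl identifiers, and it had 14.4, 8.90 and 58.7 FPKM in Kashmiri and 37.1, 7.87 and 5.63 FPKM in Jersey. It was highest in Kashmiri D250 and lowest in Jersey D250, a ratio of 10.4. SND1, a nuclease that is also a transcriptional coactivator, had 535, 104 and 207 FPKM in Kashmiri and 175, 65.9 and 88.6 FPKM in Jersey, lowest at D90 in both breeds.

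The largest number of processing genes past the limit was 8 of 37 tested, in Jersey D250 over D15. AGO2, CNOT1, CNOT7, DDX17, DDX6, PAN3 and XRN1 were higher at D250 and DGCR8 was lower. CNOT1, CNOT7 and PAN3 shorten poly-A tails, and XRN1 degrades decapped messenger RNA. PAN3 went from 2.63 to 10.7 and 34.8 FPKM in Jersey and XRN1 from 0.754 to 3.25 and 11.0 FPKM. In Jersey over Kashmiri at D250, ADAR, DDX5 and PAN3 were higher and DGCR8 lower, of 37 tested, and 0 were past the limit at D15 and at D90. Among all names 12.6% and 12.3% were past the limit in these comparisons. After rescaling by the upper quartile or by the sum without milk protein genes the counts of 8 and 4 became 5 and 1.

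DDX5, an RNA helicase that works with DROSHA, belongs to both groups of genes, since its entry is joined with POLG2, an Ensembl identifier and mir-3064. It had 398, 261 and 133 FPKM in Kashmiri and 399, 267 and 625 FPKM in Jersey, nearly equal between breeds at D15 and D90 and 4.68 times as high in Jersey at D250. Whether any of these levels changes how the primary transcripts are cut was not tested.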

How the data were processed

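RNA of milk epithelial cells was sequenced in 17 samples of Kashmiri and Jersey cattle. The authors used stranded poly-A libraries, trimmed reads with Trimmomatic, aligned them to UMD3.1 with Bowtie2 (per the labels) with TopHat for splice junctions. Cufflinks assembled transcripts and Cuffdiff gave the levels. The deposited values are FPKM, fragments scaled to transcript length and mapped reads, with 1 pooled value per group of breed and day. Columns labelled Local were taken as Kashmiri. Depth per sample is not in the table, so no interval was computed, and values per library were not analysed here. Samples were grouped by breed and day from the labels.

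Names were split at commas, and of repeated names the row with the highest mean was used, which dropped 1 row among the members. The 9 comparisons were the 3 pairs of days in each breed and Jersey over Kashmiri on each day. The call rule needed 1 FPKM or more in the higher group and, with a pseudocount of 1, a log2 ratio of 2 or more in size. The rule was tested on simulated data drawn from names at 10 FPKM or more, so that test does not cover the low entries described here. Alternatives were another pseudocount, a higher minimum, 2 rescalings, the lowest row of a repeated name and a lower fold limit. Leaving out entries listed at 0 was chosen after seeing the data.

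The members and gene lists were chosen with earlier results of these data known. Named with values were the 10 microRNA-only and 10 joined entries with the highest mean, up to 3 of each kind per comparison with the largest ratio among those at 1 FPKM or more in both groups, list members at 1 FPKM, processing genes past the limit with DROSHA, DGCR8, XPO5, DICER1 and AGO2, entries above 10 FPKM in all groups, host genes of known pairs, and members nearest the threshold. Other entries that are named were added after their values were seen. No sequence is printed. The tools were pandas 2.3.3, numpy 2.4.6 and matplotlib 3.10.9 in Python 3.11.15.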

Additional observations from a re-analysis of the deposited data

Results flagged for a closer look

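mir-27b moved in opposite directions between D15 and D250 in the breeds. In Kashmiri it was listed at 0 at D15 and had 13.5 FPKM at D250, and in Jersey it had 4.78 FPKM at D15 and was listed at 0 at D250. The difference between the breeds in the log2 ratio of D250 over D15 with the pseudocount, Jersey minus Kashmiri, was -6.39. With 1 value per group the difference was not tested, and it rests on entries listed at 0.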

How the results depend on the processing

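No paired analysis was possible because each group had a single pooled value, and for the same reason no replicate could be left out. In the order D90 over D15, D250 over D90 and D250 over D15 in Kashmiri and then in Jersey, followed by Jersey over Kashmiri at D15, D90 and D250, a fold limit of an absolute log2 ratio of 1 gave 18, 15, 20, 20, 20, 32, 27, 23 and 39 entries and 5, 2, 8, 8, 7, 14, 4, 5 and 13 processing genes, with 7 entries of the immune list at D15 between breeds. A pseudocount of 0.1 FPKM gave 5 entries at D250 over D90 in Jersey, 18 entries and 7 of the immune list at D15 between breeds, and 2 processing genes at D90 over D15 and 2 at D250 over D15 in Kashmiri. A minimum of 10 FPKM gave 5 entries at D90 over D15 in Kashmiri, 4 at D90 over D15 and 1 at D250 over D90 in Jersey. Both rescalings, by the upper quartile and by the sum without milk protein genes, gave 1 entry at D250 over D90 in Jersey, and processing genes numbering 2 at D90 over D15 and 1 at D250 over D15 in Kashmiri, 0 at D90 over D15 and 5 at D250 over D15 in Jersey, and 1 at D250 between breeds. The lowest row of a repeated name gave 0 processing genes at D90 over D15 in Kashmiri and 1 at D15 between breeds. Without entries listed at 0, an alternative chosen after seeing the data, there were 3 entries at D250 over D90 and 7 at D250 over D15 in Kashmiri, and 5 at D90 over D15 and 1 at D250 over D90 in Jersey. A limit of 10 FPKM left 47 members. The cause of these differences was not tested, beyond the fewer entries that the last 2 settings leave.

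Of the 99 ratios of members past the limit, 99 kept their sign under both rescalings, and 88 stayed past the limit with the upper quartile and 86 with the sum. The median log2 ratio of all names between breeds at D250 moved from -0.10 to -0.56 and -0.74 on these scales, and at D250 over D15 in Kashmiri from -0.04 to 0.23 and 0.77.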
